A study of Mus musculus with 4 samples.

Results

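The collagen genes described here were the 44 of 32285 listed genes whose symbol is Col followed by a number, the letter a and a number, taken whatever their values were. They were grouped by the structure their chains build, as 11 fibrillar genes, 6 basement membrane genes, 9 FACIT genes and 18 others. Single cells of synovium and lung were captured from female C57BL/6 mice aged 4 months. TNF+ mice (TNF-Tg, named hTNFtg in the labels) carry a human TNF gene, and TNF- mice were their transgene-free littermates. The study asked how complement takes part in the erosive arthritis and the pulmonary vascular disease of this model. Tissue of 3 to 5 mice in lung and 5 to 10 in synovium was pooled for each genotype and digested with collagenase, so each genotype and tissue was 1 library. No difference therefore has a replicate check, and every interval given is a 95% counting interval that covers counting error only. The human transgene was not in the mouse reference used for counting and could not be checked.

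Collagens are secreted or membrane proteins whose chains wind around each other into a rigid helix. Fibrillar types assemble into the cables that carry tension in tendon, bone, skin and vessel walls, FACIT types sit on the surface of those fibrils, and type IV chains form the sheet under endothelium, epithelium and around mural cells. Type VI makes beaded filaments around cells, and the multiplexins, types XV and XVIII, lie at the border between basement membranes and the surrounding matrix.

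After filtering, 3152 to 9174 cells remained in each library, with a median of 7137 to 12492 UMIs (distinct transcript molecules) per cell. Lineages were named from marker lists, so the markers are no separate check of the names. The 18 fibroblast markers summed to 25159 and 16737 CPM (UMIs per 1000000) in TNF- and TNF+ synovial fibroblasts, against 875 and 222 CPM in synovial endothelium. In lung they summed to 6534 and 6158 CPM in fibroblasts, against 83.7 and 168 CPM in endothelium. Fibroblasts were 53.1% of cells in TNF- synovium and 14.7% in TNF+ synovium, and 6.57% and 1.29% in TNF- and TNF+ lung. Myeloid cells went the other way, from 10.0% to 38.5% in synovium and from 15.1% to 54.2% in lung. TNF+ lung fibroblasts had a median of 986.5 UMIs per cell against 6060.5 in TNF- lung, and TNF+ lung endothelium had 780 against 6156. Levels are therefore given as CPM, the UMIs of a gene per 1000000 UMIs of the same cells, and the count per cell is added where it gives another picture.

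In synovium nearly all collagen UMIs came from fibroblasts, whereas in lung endothelium and epithelium held a large part. Mesenchyme, that is fibroblasts together with pericytes and smooth muscle (mural cells), held 94.8% of collagen UMIs in TNF- synovium and 92.1% in TNF+ synovium. In lung it held 55.2% in the TNF- library and 24.6% in the TNF+ library. Endothelium held 28.3% and epithelium 12.3% of the collagen UMIs of TNF- lung, and endothelium held 33.9% in TNF+ lung. Myeloid cells held 24.0% of the collagen UMIs in TNF+ lung, where they had 0.663 collagen UMIs per cell, against 0.80 in TNF- lung and 22.1 per fibroblast in TNF+ lung. The large myeloid share thus came with a low count in each of many cells.

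**Figure D1:**
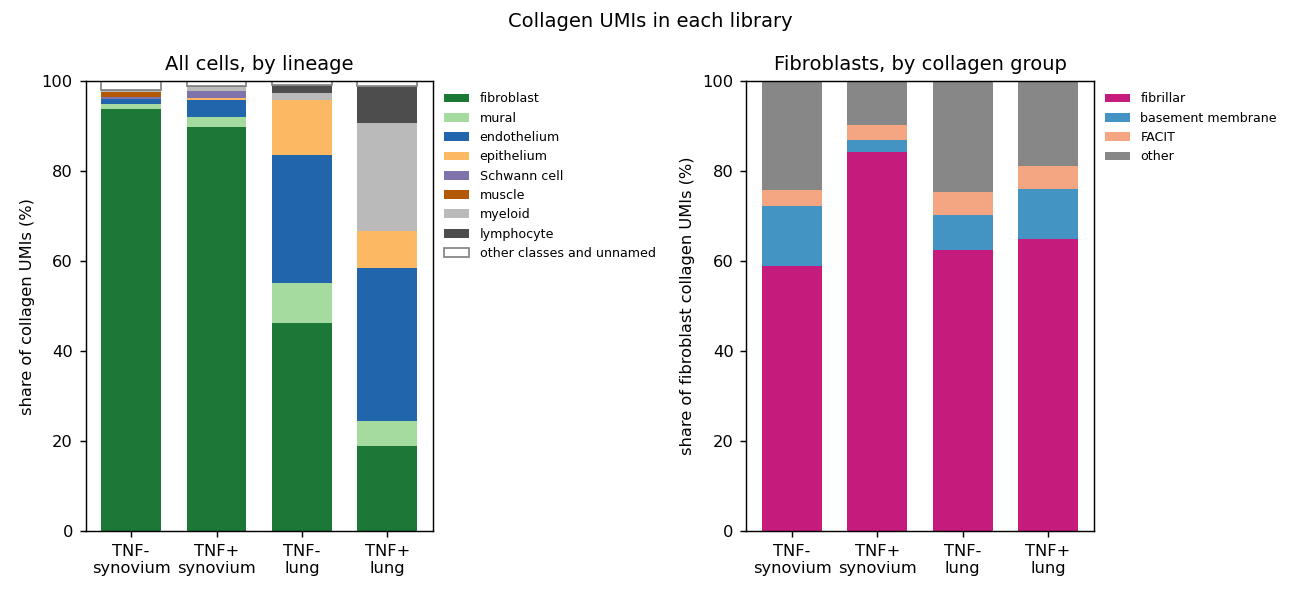
Share of collagen UMIs (%) by cell lineage over all cells of each library (left) and by collagen group within fibroblasts (right), one bar per library. Fibroblasts and mural cells fill 94.8% and 92.1% of the synovial bars and 55.2% and 24.6% of the lung bars, and fibrillar genes take 84.2% of the TNF+ synovial fibroblast bar.

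Over all cells of a tissue, the collagen genes together were lower in the TNF+ library, slightly in synovium and steeply in lung. They summed to 8831 CPM in TNF- synovium and 5676 CPM in TNF+ synovium, a log2 ratio of -0.64 (interval -0.65 to -0.63). In lung the sum of all members was 1022 CPM without and 162 CPM with the transgene, a log2 ratio of -2.65. The fibrillar genes differed least in synovium, with 5095 against 4456 CPM, and most in lung, with 363 against 37.1 CPM. In a pooled tissue such values cannot tell fewer fibroblasts from less collagen RNA per fibroblast. With no filter on cells the synovial ratio turned to 0.26. The limits on genes per cell and on mitochondrial UMIs together had left 3152 of 4246 TNF+ and 6200 of 6899 TNF- synovial barcodes.

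Of the 43 members with at least 20 UMIs in synovium, 4 were over 2-fold higher in the TNF+ library and 19 over 2-fold lower, where 11.8% and 21.9% of all genes with that many UMIs passed the same limits. Of 39 such members in lung, 3 were higher and 26 lower, against 5.79% and 25.5% of all genes. The members' median log2 ratio was -0.81 in synovium, where that of all genes was -0.17, and -2.18 in lung, where it was -0.32. Col1a1, the main chain of type I collagen, was an exception in synovium. It had 75869 UMIs in TNF- synovium and 55000 UMIs in TNF+ synovium, a log2 ratio of CPM of 0.74, although TNF+ synovium had far fewer fibroblasts.

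Within synovial fibroblasts the picture turned: the fibrillar and FACIT genes were higher in the TNF+ library, the type IV genes lower, and the remaining genes as a group nearly level. All members together held 12659 CPM in TNF- and 28752 CPM in TNF+ fibroblasts, a log2 ratio of 1.18, or 192 and 363 UMIs per cell. The fibrillar genes went from 7456 to 24212 CPM (log2 1.70), the FACIT genes from 443 to 954 CPM (1.11) and the basement membrane genes from 1683 to 795 CPM (-1.08, interval -1.12 to -1.04). Fibrillar genes thus made up 58.9% of the collagen UMIs of TNF- and 84.2% of those of TNF+ synovial fibroblasts, while basement membrane genes made up 13.3% and 2.77%. The type VI (beaded filament) genes were about level, at 2444 and 2515 CPM.

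Counted by gene, 14 of the 41 members with at least 20 UMIs in synovial fibroblasts were over 2-fold higher in TNF+ cells, where 8.56% of all genes were, and 10 were over 2-fold lower, where 22.9% of all genes were. Their median log2 ratio was 0.20, against -0.30 for all genes. Col9a1, Col10a1 and Col25a1 had fewer than 20 UMIs in these cells. In lung fibroblasts 27 members reached 20 UMIs. Of these, 5 were higher and 2 lower, against 10.4% and 10.7% of all genes, and the median log2 ratio was 0.02, against -0.02 for all genes.

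**Figure D2:**
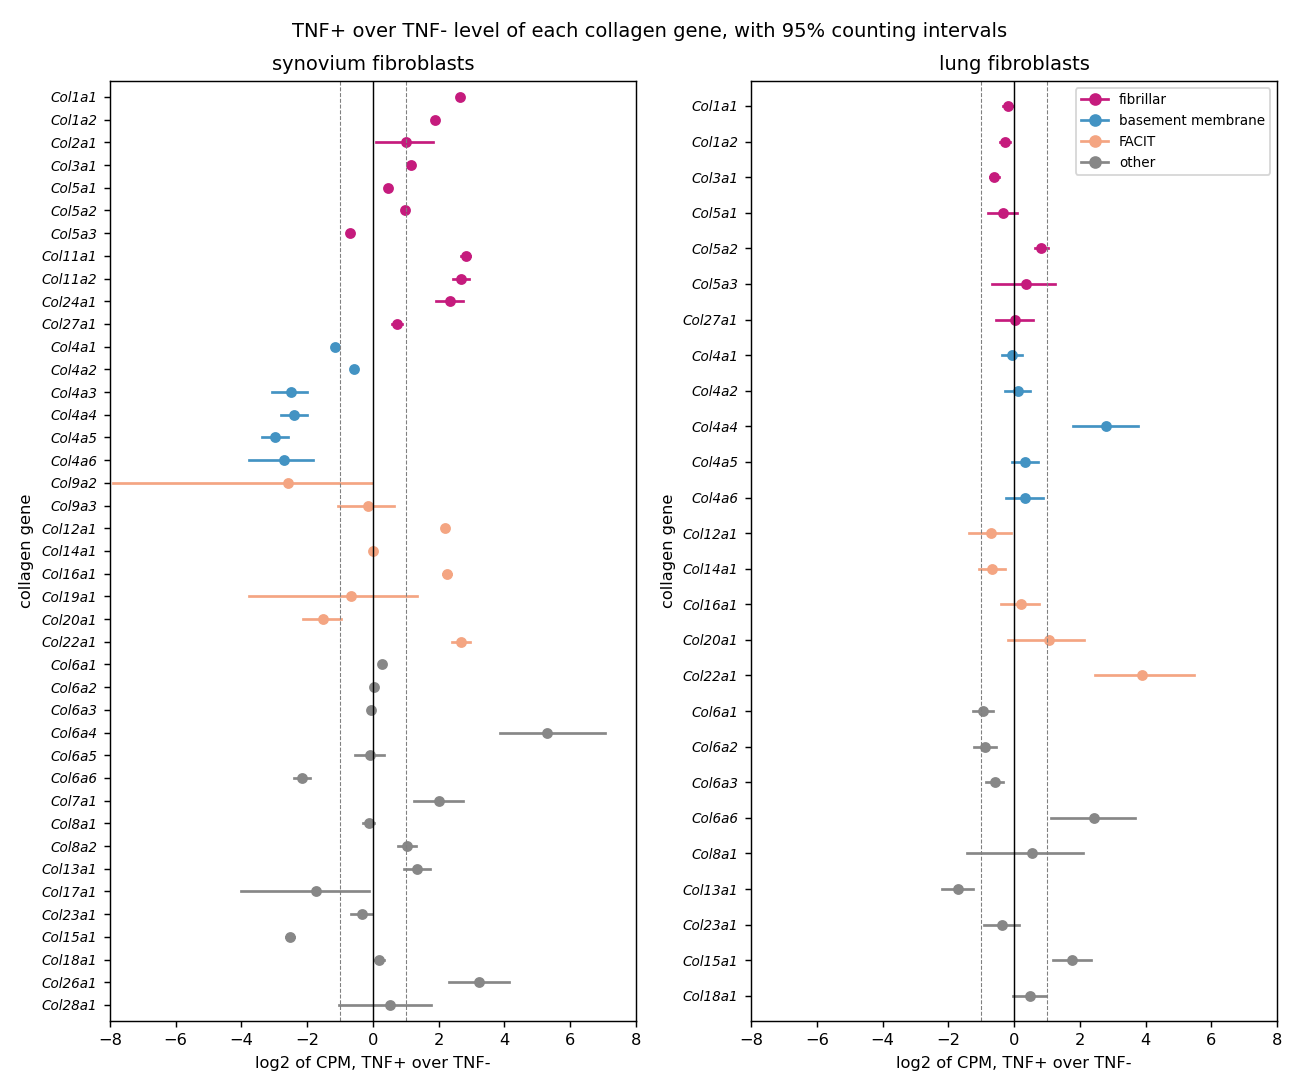
Log2 ratio of CPM, TNF+ over TNF-, for each collagen gene with at least 20 UMIs and UMIs in both libraries, in synovial (left) and lung (right) fibroblasts. Points are coloured by group, lines are 95% counting intervals and dashed lines mark 2-fold. In synovium Col1a1, Col11a1 and Col12a1 lie right of the dashed lines and all 6 type IV genes left of 0, while most lung members lie between the dashed lines.

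Among the fibrillar genes, Col11a1, Col11a2 and Col1a1 were the furthest above their TNF- level in synovial fibroblasts. Col1a1 (ENSMUSG00000001506, chromosome 11, 94936224 to 94953042, mm10), which supplies most chains of type I collagen, had 1462 CPM in TNF- and 9158 CPM in TNF+ synovial fibroblasts, from 72863 and 53606 UMIs, a log2 ratio of 2.65 (interval 2.63 to 2.66). In lung fibroblasts Col1a1 had 1023 and 899 CPM in TNF- and TNF+ cells (-0.19, interval -0.35 to -0.03). The TNF+ synovial library thus stood alone, and the other 3 libraries lay within the range of 899 to 1462 CPM.

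Col1a2 (ENSMUSG00000029661, chromosome 6, 4504814 to 4541544), the second type I chain, had 1945 and 7194 CPM in TNF- and TNF+ synovial fibroblasts (log2 1.89) and 1298 and 1066 CPM in TNF- and TNF+ lung fibroblasts (-0.28, interval -0.43 to -0.14). Col3a1 (ENSMUSG00000026043, chromosome 1, 45311538 to 45349706), the single chain of type III collagen that mixes with type I in skin, vessels and lung, had 2492 and 5596 CPM in synovium (1.17) and 1972 and 1299 CPM in lung (-0.60, interval -0.73 to -0.47). The order of the 3 genes differed between libraries. Col3a1 led in both TNF- libraries and in TNF+ lung, and Col1a1 led in TNF+ synovium; as UMIs are counted near the 3′ end and genes differ in capture, this order is read only between libraries.

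Col1a2 and Col3a1 were both higher in TNF+ synovial fibroblasts taken as a whole. They went opposite ways once the Mmp13 Ibsp cluster, described below, was left out. The 250 bases upstream of their starts are shown. Whether these sequences bear on the level of either gene was not tested. They are from RefSeq (GRCm38.p6, plus strand), at chr6:4505368-4505617 and chr1:45311288-45311537, and capitals mark matches on either strand to the CCAAT box, spelled by its name, to the TATA box as TATAAA or to the GC box as GGGCGG. The RefSeq start of Col1a2 lies inside the annotated gene given above. The Col1a2 window holds 2 GC boxes and 1 CCAAT box, the Col3a1 window 1 TATA box.
Col1a2: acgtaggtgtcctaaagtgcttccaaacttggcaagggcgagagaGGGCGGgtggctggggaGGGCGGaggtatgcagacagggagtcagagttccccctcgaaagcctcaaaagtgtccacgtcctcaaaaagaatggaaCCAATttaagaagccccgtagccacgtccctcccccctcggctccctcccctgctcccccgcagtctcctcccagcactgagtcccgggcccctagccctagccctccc
Col3a1: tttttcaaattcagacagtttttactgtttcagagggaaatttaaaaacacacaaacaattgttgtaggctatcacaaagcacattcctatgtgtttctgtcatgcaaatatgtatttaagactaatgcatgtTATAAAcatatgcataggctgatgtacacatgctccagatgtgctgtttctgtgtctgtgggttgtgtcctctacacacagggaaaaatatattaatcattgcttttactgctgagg

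The minor fibrillar genes, among them those of types V and XI, whose chains lie in the core of larger fibrils and limit their width, did not move as one. Col11a1 had 21.7 CPM in TNF- and 153 CPM in TNF+ synovial fibroblasts (log2 2.82, interval 2.69 to 2.95), and Col11a2 had 6.56 and 42.4 CPM (2.69, interval 2.45 to 2.93). In lung fibroblasts each had 3 UMIs or fewer in either library. Col5a2 went from 574 to 1130 CPM in synovial fibroblasts (0.98, interval 0.94 to 1.01) and from 387 to 686 CPM in lung fibroblasts (0.83, interval 0.63 to 1.02). It was thus higher in both TNF+ libraries.

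Its partner Col5a1 had 379 and 523 CPM in TNF- and TNF+ synovial fibroblasts (0.46) and 162 and 128 CPM in lung fibroblasts (-0.34, interval -0.79 to 0.07). Col5a3, the third type V chain, was lower in TNF+ synovial fibroblasts, at 528 and 328 CPM (-0.69), and its lung ratio had an interval that spanned 0. Col24a1, at 2.65 and 13.3 CPM in synovial fibroblasts (2.33), shares its strand with an overlapping gene, so its UMIs are uncertain. Col2a1, the cartilage collagen, had 64 UMIs in TNF- and 15 in TNF+ synovial fibroblasts.

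The fibrillar difference in synovium went with 1 cluster of fibroblasts that was nearly absent from the TNF- library. This cluster, here called Mmp13 Ibsp after 2 of its leading genes, had Saa3, Mmp13, Cxcl5 and Ibsp in front and held 226 TNF+ cells and 2 TNF- cells. Its cells carried fibroblast markers together with markers of bone-forming cells, so from these files cells of the synovium and of the bone surface cannot be told apart in it. It was 48.7% of the cells classed as TNF+ synovial fibroblasts and held 79.2% of their collagen UMIs. Its cells were deep, at a median of 1.975 times the median UMIs per cell of their library. It therefore also held a larger share of all UMIs of these fibroblasts than of their cells, so the UMI shares given here are not measured against 48.7%. By gene it held 82.4% of the Col1a1 UMIs, 74.5% of those of Col1a2, 87.9% of those of Col3a1 and 84.2% of those of Col5a1 in TNF+ synovial fibroblasts, but 49.8% of those of Col11a1. Its level was 11993 CPM for Col1a1, 8518 CPM for Col1a2 and 7816 CPM for Col3a1. In all TNF+ synovial fibroblasts, this cluster included, these levels were 9158, 7194 and 5596 CPM, a comparison that does not depend on depth.

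The osteoblast list of 8 markers, which includes Ibsp, summed to 1871 CPM in that cluster, with all 8 markers present. It summed to 36.9 CPM in all TNF- synovial fibroblasts, where Ibsp was at 0, and to 1193 CPM in all TNF+ synovial fibroblasts. The chondrocyte list of 10 markers, with Matn1 at 0, summed to 240 and 792 CPM in TNF- and TNF+ synovial fibroblasts, and the mural list to 140 and 701 CPM. The part of such cells in the collagen difference was not tested. Without the Mmp13 Ibsp cluster, the log2 ratio of all members in synovial fibroblasts was 0.35, that of fibrillar genes 0.73 and that of basement membrane genes -0.67. Without it 13 of 40 members were higher and 7 lower, against 10.7% and 13.7% of all genes, and the median log2 ratio was -0.13 for the members and for all genes alike. The ratio of Col3a1 then turned to -0.45, while those of Col1a1 and Col1a2 stayed above 0 at 1.57 and 1.35.

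The remaining fibroblast clusters did not move one way. Each was named by its leading genes, except that 1 was called tendon-like from its markers. In the tendon-like cluster (358 TNF- and 82 TNF+ cells) all members went from 12382 to 25947 CPM (log2 1.07) and the fibrillar genes from 9271 to 21707 CPM (1.23). Col1a1 went from 3287 to 8557 CPM there (1.38), Col1a2 from 3765 to 9110 CPM (1.27) and Col3a1 from 1083 to 2248 CPM (1.05). All 3 were higher in TNF+ cells at a nearly equal median depth of 10804.5 and 10050 UMIs per cell. In TNF- and TNF+ tendon-like cells the osteoblast list summed to 19.2 and 17.8 CPM, the tendon-like list to 15923 and 20751 CPM, the lining fibroblast list to 1277 and 3958 CPM and the chondrocyte list to 1783 and 2367 CPM, and their part was not tested.

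In the Cxcl14 Smoc2 cluster (1326 TNF- and 55 TNF+ cells), the most numerous of TNF- synovium, the direction was the opposite. The fibrillar genes went from 7430 to 2833 CPM (log2 -1.39, interval -1.48 to -1.31). Col3a1 went from 2654 to 453 CPM (-2.55, interval -2.77 to -2.34) and Col1a1 from 1184 to 616 CPM (-0.94). Median depth there was 15157.5 UMIs per TNF- cell and 6877 per TNF+ cell. The Gdf10 Myoc cluster (935 and 83 cells) lay between, with 7769 and 6515 CPM of fibrillar genes and 1519 and 1288 CPM of Col1a1. The Pi16 Dpp4 cluster had 18 TNF+ cells, and all members had 9562 and 6517 CPM there. Weighting the TNF+ clusters to their shares in the TNF- library turned the log2 ratio of all members in synovial fibroblasts to -0.46 and that of the fibrillar genes to -0.37. This weighting rests in part on the 55 TNF+ Cxcl14 Smoc2 cells and the 18 TNF+ Pi16 Dpp4 cells.

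**Figure D3:**
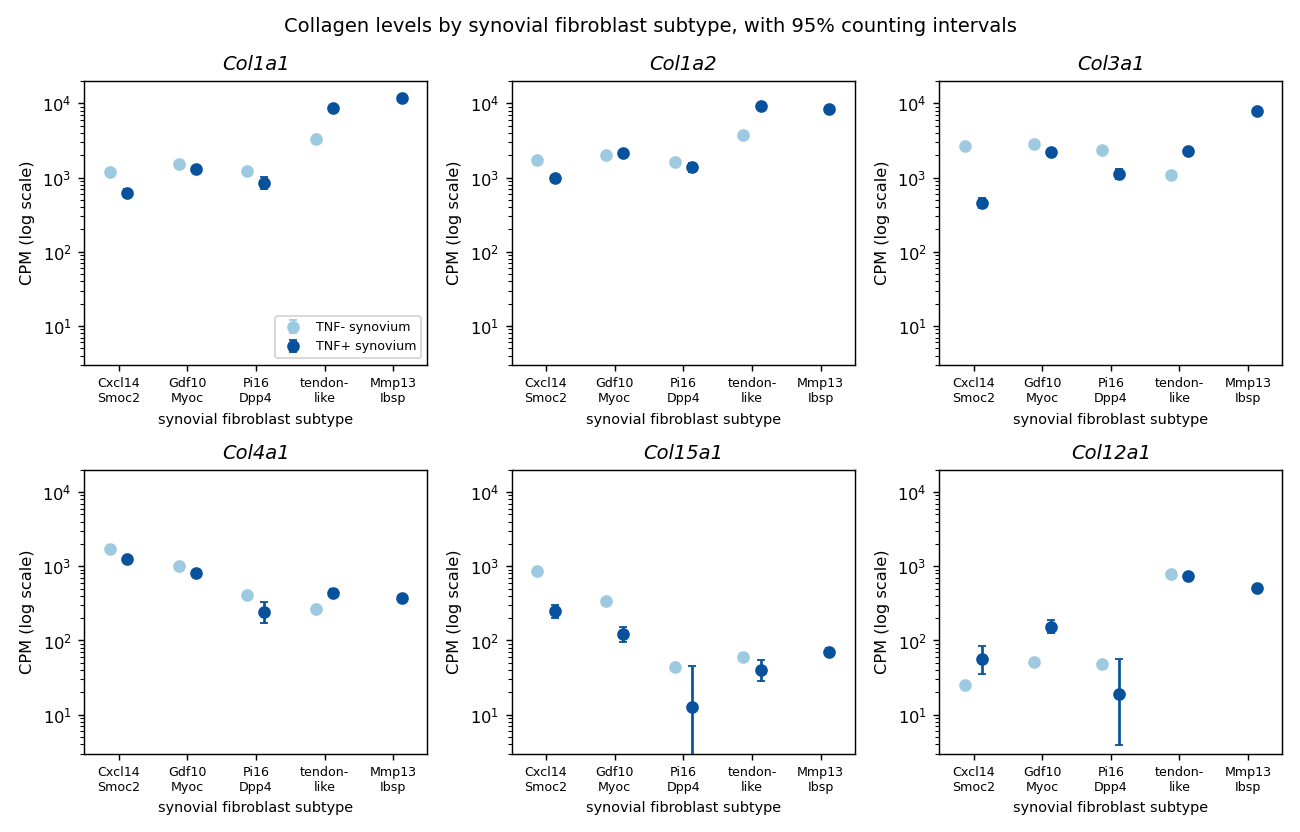
CPM on a log scale of 6 collagen genes in 5 synovial fibroblast clusters, with TNF- and TNF+ libraries as light and dark points and 95% counting intervals; the Mmp13 Ibsp cluster has no TNF- point because it held 2 TNF- cells. The TNF+ point of Col1a1 lies above the TNF- point in the tendon-like cluster (8557 against 3287 CPM) and below it in the Cxcl14 Smoc2 cluster (616 against 1184 CPM).

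The balance between chains differed as well. Col1a1 made up 42.9% of the Col1a1 and Col1a2 UMIs of TNF- synovial fibroblasts (interval 42.7 to 43.2) and 56.0% of those of TNF+ ones (55.7 to 56.3). It made up 58.5% in the Mmp13 Ibsp cluster. In the tendon-like cluster the share was 46.6% and 48.4% in TNF- and TNF+ cells, and in lung fibroblasts 44.1% and 45.7% (interval of the latter 42.2 to 49.3). Of these clusters, Col1a1 outweighed Col1a2 in the Mmp13 Ibsp cluster alone.

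Col3a1 made up 63.0% of the Col3a1 and Col1a1 UMIs in TNF- synovial fibroblasts and 37.9% in TNF+ ones. In lung fibroblasts the 2 libraries had 65.8% and 59.1%. The tendon-like cluster was lowest in both synovial libraries, at 24.8% and 20.8%, and the Cxcl14 Smoc2 cluster went from 69.2% to 42.4%. In the Gdf10 Myoc cluster the share was 64.8% and 63.0%.

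**Figure D4:**
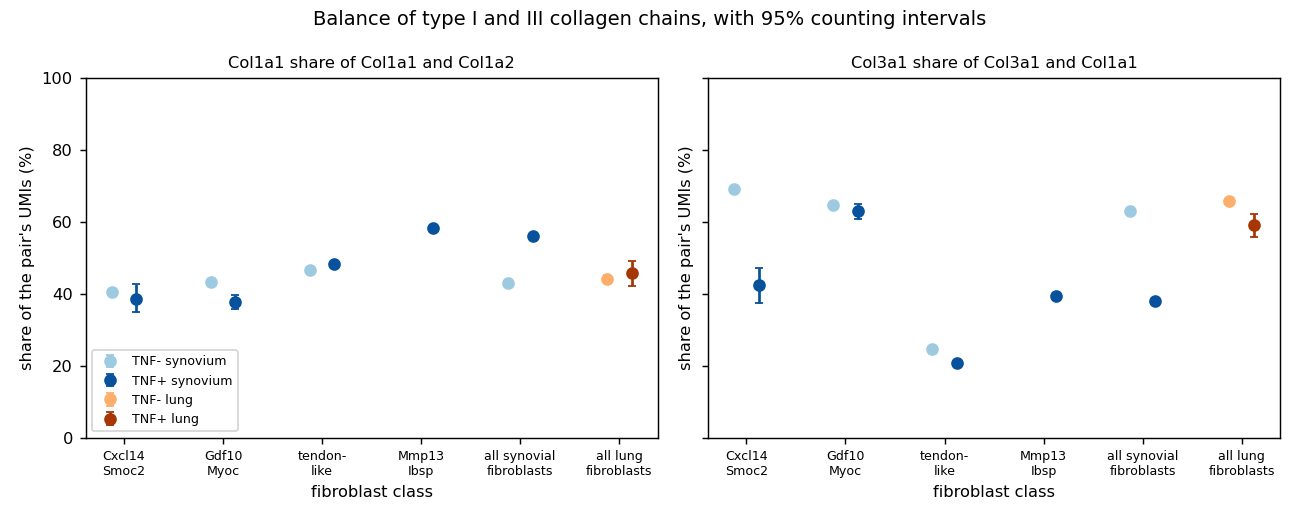
Share (%) of Col1a1 in the UMIs of Col1a1 and Col1a2 (left) and of Col3a1 in those of Col3a1 and Col1a1 (right), by fibroblast class and library, with 95% counting intervals. Col1a1 exceeds 50% only in Mmp13 Ibsp cells and in the TNF+ synovial fibroblasts that contain them.

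All 6 type IV genes, which code for the basement membrane network, were lower in TNF+ synovial fibroblasts. Col4a1 (ENSMUSG00000031502, chromosome 8, 11198423 to 11312826), a chain of the widespread type IV network, had 1094 CPM in TNF- and 490 CPM in TNF+ synovial fibroblasts (log2 -1.16, interval -1.21 to -1.10). In lung fibroblasts it had 269 and 258 CPM (-0.06, interval -0.37 to 0.24). Col4a2 (ENSMUSG00000031503, chromosome 8, 11312805 to 11449287), its partner, had 418 and 278 CPM in synovium (-0.59) and 152 and 165 CPM in lung (0.12, interval -0.27 to 0.49). For both genes the lung difference was within counting error.

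The chains of the specialised networks were further apart in synovial fibroblasts. Col4a3 had 30.04 and 5.30 CPM in TNF- and TNF+ cells (log2 -2.50, interval -3.07 to -1.99), Col4a4 had 52.8 and 10.1 CPM (-2.39, interval -2.79 to -2.02) and Col4a5 had 76.3 and 9.74 CPM (-2.97, interval -3.37 to -2.59). Col4a6 had 557 UMIs in TNF- and 10 UMIs in TNF+ synovial fibroblasts (-2.71). In lung fibroblasts the ratios of Col4a5 and Col4a6 were 0.34 each with intervals that reached 0 or below, and Col4a4 had 21 and 18 UMIs, or 6.54 and 45.1 CPM (2.79, interval 1.79 to 3.76). The Mmp13 Ibsp cluster held 48.2% of the Col4a1 UMIs of TNF+ synovial fibroblasts, 3.23% of those of Col4a3 and none of those of Col4a4.

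Within clusters the difference was smaller for the widespread chain. Col4a1 had 1711 and 1240 CPM in TNF- and TNF+ cells of the Cxcl14 Smoc2 cluster (log2 -0.46), and in the tendon-like cluster its TNF+ level was higher (0.75). The summed type IV genes went from 438 to 715 CPM in tendon-like cells and from 2674 to 1871 CPM in Cxcl14 Smoc2 cells. In the Mmp13 Ibsp cluster all type IV genes had 641 CPM and the fibrillar genes 31178 CPM.

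Type IV genes lie in pairs with their starts facing away from each other, and the sequence between the starts is shown for 2 pairs. All type IV genes, and not only these partners, were lower in TNF+ synovial fibroblasts, and the part of the shared sequences was not tested. The annotated Col4a1 and Col4a2 genes overlap at their starts, and the 2 promoter windows share 78 bases at chr8:11312777-11312854. Col4a4 and Col4a3 start 72 bases apart, with chr1:82586850-82586920 between them. Both stretches are from RefSeq (GRCm38.p6, plus strand), and capitals mark the same 3 boxes on either strand. The first stretch holds 1 GC box, and the second holds no match.
Col4a1 and Col4a2: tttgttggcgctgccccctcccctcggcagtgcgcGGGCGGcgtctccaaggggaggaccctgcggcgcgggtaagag
Col4a3 and Col4a4: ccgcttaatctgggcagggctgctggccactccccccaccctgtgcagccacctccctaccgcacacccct

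The pair did not stay in one ratio everywhere. Col4a1 made up 72.4% of the Col4a1 and Col4a2 UMIs in TNF- synovial fibroblasts and 63.8% in TNF+ ones. In synovial endothelium it made up 59.9% and 59.6%, in lung endothelium 59.0% and 62.5% and in synovial mural cells 62.4% and 61.5%. The share in synovial endothelium and mural cells was thus nearly the same in both genotypes.

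Outside fibroblasts, type IV levels went in opposite directions in the endothelium of the 2 tissues. The summed type IV genes went from 990 to 2809 CPM in lung endothelium (log2 1.51, interval 1.46 to 1.56) and from 1881 to 1331 CPM in synovial endothelium (-0.50, interval -0.55 to -0.45). Col4a1 had 578 and 1747 CPM in TNF- and TNF+ lung endothelium and 1105 and 792 CPM in synovial endothelium. Col4a2 had 402 and 1049 CPM in lung endothelium and 739 and 537 CPM in synovial endothelium. TNF+ lung endothelium was thus the highest of the 4 endothelial groups for both genes.

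Depth and cluster make-up moved with the lung value. TNF+ lung endothelium lay mostly in cluster 17 (257 of 385 cells, median 650 UMIs) and cluster 28 (90 cells), whereas 1414 of 2097 TNF- cells lay in cluster 1. Type IV genes had 395 and 1227 CPM in TNF- and TNF+ cells of cluster 17 and 2733 and 3753 CPM in those of cluster 28, where the TNF- library had 17 and 4 cells. The TNF+ level was the higher in each of the 7 lung clusters, but no cluster held the 50 cells of both libraries needed for a ratio. In clusters 1, 14, 16, 31 and 32 the TNF+ library had only 5, 4, 24, 1 and 4 cells, so these directions carry little weight. The endothelial marker list summed to 14932 and 9464 CPM in TNF- and TNF+ lung endothelium and the macrophage or monocyte list to 1234 and 2526 CPM, and their part in the result was not tested. Per cell the type IV log2 ratio was 0.76 in lung endothelium, and in synovial endothelium it turned to 0.33. In synovial endothelium the mural list went from 172 to 664 CPM and the fibroblast list from 875 to 222 CPM, and their part was not tested.

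Mural cells had less type IV RNA, and lung epithelium less Col4a3 and Col4a4 RNA, in the TNF+ libraries. Synovial mural cells had 1847 and 1306 CPM (log2 -0.50, interval -0.58 to -0.42), and lung mural cells 1695 and 1067 CPM (-0.67, interval -0.89 to -0.45). In synovial mural cells the mural list went from 18662 to 13943 CPM, the endothelial list from 487 to 3239 CPM and the fibroblast list from 1995 to 567 CPM, and their part was not tested. Within synovial mural clusters the values were closer. Pericytes of 1 cluster (232 and 38 cells) had 2394 and 2520 CPM and smooth muscle cells (60 and 88 cells) 764 and 682 CPM, while another pericyte cluster, with 1565 CPM, held 65 TNF+ cells and 1 TNF- cell. In lung mural cells, whose median depth was 7200 and 643 UMIs, Col4a1 went from 788 to 346 CPM and the macrophage or monocyte list from 214 to 4602 CPM, whose part was not tested. Of the 106 TNF- and 95 TNF+ lung mural cells, a shallow pericyte cluster held 22 and 86. A deeper cluster with pericyte and smooth muscle markers held 84 and 9, and the part of this make-up was not tested. With no filter on cells their type IV ratio was -0.09. Lung epithelium, where Col4a3 and Col4a4 build the network under alveolar cells, had 444 and 231 CPM of Col4a3 (-0.94) and 412 and 213 CPM of Col4a4 (-0.95). The macrophage or monocyte list summed to 15087 and 14836 CPM in it, and its median depth was 8623 and 2552 UMIs. Of its 356 TNF- and 156 TNF+ cells, cluster 18 held 172 and 59. Cluster 19, with Rtkn2 and Ager among its leading genes, held 172 and 34, and cluster 30, led by Sftpa1, held 12 and 63. The part of the list, of depth and of cluster make-up in these values was not tested.

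**Figure D5:**
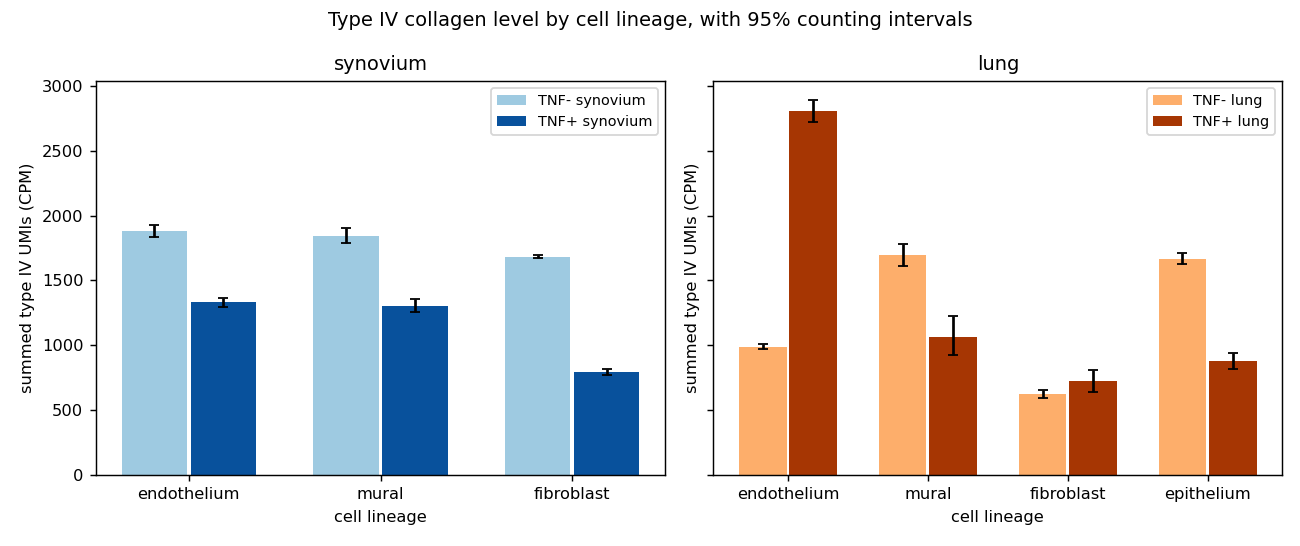
Summed CPM of the 6 type IV genes by lineage in synovium (left) and lung (right), with light bars for TNF- and dark bars for TNF+ libraries and 95% counting intervals. Lung endothelium is the lineage with the largest distance between bars (990 and 2809 CPM), and the 3 synovial lineages are all lower in the TNF+ library.

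The FACIT genes separated into members high in tendon-like or Mmp13 Ibsp cells and members that were not. Col12a1 (ENSMUSG00000032332, chromosome 9, 79598991 to 79718831), which links fibrils in tendon and ligament, had 100.1 CPM in TNF- and 461 CPM in TNF+ synovial fibroblasts (log2 2.20, interval 2.14 to 2.27). In lung fibroblasts it had 93.7 and 57.6 CPM (-0.70, interval -1.38 to -0.09). Within the tendon-like cluster Col12a1 had 776 and 741 CPM (-0.07, interval -0.19 to 0.05), so the 2 genotypes could not be told apart there. It was higher in TNF+ cells in the Cxcl14 Smoc2 cluster, at 25.2 and 56.0 CPM.

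Col16a1, found on fibrils and near cell surfaces, had 33.9 and 162 CPM in TNF- and TNF+ synovial fibroblasts (log2 2.26, interval 2.14 to 2.38), and 80.8% of its TNF+ UMIs were in Mmp13 Ibsp cells. Col22a1, a collagen of the muscle and tendon junction, had 5.16 and 33.3 CPM (2.69, interval 2.42 to 2.97). Its level in tendon-like cells was 62.0 and 165 CPM, and 19.0% of its TNF+ UMIs were in Mmp13 Ibsp cells. Col22a1 was also higher in TNF+ lung fibroblasts, from 7 and 13 UMIs (3.90, interval 2.47 to 5.47).

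Col14a1, which coats fibrils in skin and tendon, was level in synovial fibroblasts at 286 and 288 CPM (log2 0.01, interval -0.06 to 0.08) and had 222 and 140 CPM in lung fibroblasts (-0.66). Col20a1, whose strand is shared with an overlapping gene, had 689 and 28 UMIs in synovial fibroblasts (-1.53, interval -2.13 to -0.99) and 35 and 9 UMIs in lung fibroblasts (1.05, interval -0.19 to 2.13). Col9a2 had 51 UMIs in TNF- and 1 UMI in TNF+ synovial fibroblasts (-2.58, interval -7.91 to -0.04).

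The chains of type VI collagen, the beaded filament around fibroblasts, were steady in synovial fibroblasts and lower in TNF+ lung fibroblasts. Col6a1 had 818 and 997 CPM in TNF- and TNF+ synovial fibroblasts (log2 0.29) and 501 and 260 CPM in lung fibroblasts (-0.94, interval -1.24 to -0.66). Col6a2 had 647 and 666 CPM in synovium (0.04) and 392 and 213 CPM in lung (-0.88). Col6a3 had 855 and 814 CPM in synovium (-0.07) and 478 and 318 CPM in lung (-0.59, interval -0.86 to -0.33). The 3 chains therefore kept close to one another in each tissue.

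The less common type VI chains moved apart. Col6a6 had 5791 and 152 UMIs, or 116 and 26.0 CPM, in TNF- and TNF+ synovial fibroblasts (log2 -2.16, interval -2.40 to -1.93) and 15 and 10 UMIs in lung fibroblasts (2.42, interval 1.11 to 3.67). Col6a4 had 5 and 23 UMIs in synovial fibroblasts (5.29, interval 3.86 to 7.04), and all of the TNF+ UMIs were in the Mmp13 Ibsp cluster.

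The multiplexins were split. Col15a1 (ENSMUSG00000028339, chromosome 4, 47208161 to 47313167), which ties basement membranes to the matrix, had 465 CPM in TNF- and 80.8 CPM in TNF+ synovial fibroblasts, from 23157 and 473 UMIs (log2 -2.52, interval -2.66 to -2.39). It was also lower in the Cxcl14 Smoc2 cluster (-1.82), in the Gdf10 Myoc cluster (-1.49) and in the tendon-like cluster (-0.59). In lung fibroblasts Col15a1 was higher in the TNF+ library, with 28.0 and 95.1 CPM from 90 and 38 UMIs (1.76, interval 1.18 to 2.33), and in lung endothelium it had 11.02 and 58.5 CPM (2.41). It was thus lower in each of these synovial comparisons and higher in both lung ones.

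Col18a1, the source of the fragment endostatin, had 68.9 and 78.9 CPM in TNF- and TNF+ synovial fibroblasts (log2 0.20, interval 0.05 to 0.34) and 69.7 and 97.6 CPM in lung fibroblasts (0.49, interval -0.04 to 0.98). Its endothelial level was 25.9 and 48.1 CPM in synovium and 14.3 and 50.5 CPM in lung. Mural cells were its main site in lung, with 412 and 495 CPM.

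Of the remaining members, Col7a1, the anchoring fibril chain under epithelia, had 51 and 24 UMIs, or 1.02 and 4.10 CPM, in synovial fibroblasts (interval of the log2 ratio 1.24 to 2.73), and Col26a1, which shares its strand with another gene, had 21 and 23 UMIs (3.22, interval 2.30 to 4.15). Col17a1, the transmembrane chain of epithelial hemidesmosomes, had 84 and 3 UMIs in synovial fibroblasts (-1.72, interval -4.02 to -0.12) and 60 and 0 UMIs in lung fibroblasts. Col13a1, a transmembrane collagen of cell contacts, went opposite ways. It had 4.92 and 12.5 CPM in synovial fibroblasts (1.34) and 344 and 105 CPM in lung fibroblasts (-1.71, interval -2.19 to -1.27). It was over 20 times more abundant in TNF- lung fibroblasts than in either synovial library.

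In lung fibroblasts as a whole the collagen genes differed little on the CPM scale. All members summed to 7927 CPM in TNF- and 6513 CPM in TNF+ cells, from 25466 and 2602 UMIs (log2 -0.28, interval -0.34 to -0.23), with 4947 and 4228 CPM for fibrillar genes (-0.23) and 623 and 723 CPM for basement membrane genes (0.22). Per cell the values were further apart, at 55.4 and 22.1 UMIs, and with no filter on cells the log2 ratio of all members was 0.12. The TNF+ lung fibroblasts were 118 cells, 91 of them in an alveolar cluster with a median of 842 UMIs. In that shallow cluster all members had 4942 and 2386 CPM, the fibroblast list 5981 and 2292 CPM and the macrophage or monocyte list 1882 and 8015 CPM, whose part was not tested. In the deeper alveolar cluster (146 and 23 cells), which held 63.4% and 78.1% of lung fibroblast collagen UMIs, all members had 8856 and 8779 CPM. A peribronchial cluster held 95 TNF- and 4 TNF+ lung fibroblasts. Its part in the lung fibroblast values of single genes given above, such as those of type VI, Col13a1 and Col14a1, was not tested.

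Some collagen genes had most of their UMIs outside fibroblasts, and where they lay differed between libraries. Among members with at least 20 UMIs in a library, fibroblasts held the most UMIs of 38 in TNF- synovium and of 29 in TNF+ synovium. In TNF- and TNF+ lung they did so for 19 and 14 members. Fibroblasts were 53.1%, 14.7%, 6.57% and 1.29% of cells in the same order. No such count was made over all genes, and the part of cell make-up in these counts was not tested. Muscle held 92.9% of the Col19a1 UMIs of TNF- synovium, at 245 CPM, and mural cells held 72.5% of those of Col25a1. In TNF+ synovium Schwann cells held 65.4% of the Col24a1 UMIs, 57.1% of those of Col9a1 and Col20a1 each and 55.6% of those of Col28a1. Epithelium in the TNF+ synovium library held 87.8% of the Col17a1 UMIs and 63.3% of those of Col4a6, with 180 cells against 3 in TNF- synovium. Of these cells, 144 lay in a cluster with Krt18, Wfdc18 and Krt8 among its leading genes, and 36 in a cluster led by Krt14, Krt17 and Krt5. Whether they came from the synovium itself or from other tissue taken with it cannot be told from these data.

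In lung, epithelium held 94.2% and 81.9% of the Col4a3 UMIs of the TNF- and TNF+ libraries, and 90.2% and 55.8% of those of Col4a4. Endothelium held 72.6% and 69.4% of the Col4a1 UMIs, and 69.1% and 59.8% of those of Col4a2. Col8a1 codes for a short-chain collagen of vessel walls. Mural cells held 87.1% of its 287 UMIs in TNF- lung and 40.9% of its 22 UMIs in TNF+ lung (interval of the latter 20.7 to 63.6). Its mural level was 290 and 49.5 CPM. Mural cells of the TNF- and TNF+ lung libraries lay mostly in different clusters, as given above, and the part of this was not tested. Fibroblasts held 94.8% and 77.8% of the Col13a1 UMIs. Col19a1 had 43 UMIs in all of TNF- lung and 316 in all of TNF+ lung, and myeloid cells held 88.3% of the latter.

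Schwann cells of synovium, the glia of its nerves, had a collagen pattern of their own that also differed by genotype. Col20a1 had 687 and 113 CPM in TNF- and TNF+ Schwann cells (log2 -2.61) and Col27a1 331 and 59.9 CPM (-2.46), while Col28a1, a collagen of peripheral nerve, had 69.9 and 185 CPM (1.40) and Col24a1 39.6 and 172 CPM (2.11). There were 68 TNF- and 235 TNF+ Schwann cells.

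Among the genes that modify, export and cross-link collagen chains or bind them as receptors, single genes differed widely and most did not pass 2-fold. Of 46 listed, 44 had at least 20 UMIs in synovial fibroblasts. Of these, 5 were over 2-fold higher in TNF+ cells and 4 lower, against 8.56% and 22.9% of all genes, with a median log2 ratio of 0.24, against -0.30 for all genes. P4ha3, a prolyl hydroxylase subunit, had 5.88 and 43.4 CPM (2.88), Lox, which cross-links collagen, 109 and 343 CPM (1.65), and the integrin chain Itga1, a collagen receptor, 33.2 and 110 CPM (1.72). Tll1, a procollagen proteinase, and the receptor chain Itga10 were the other 2 that were higher. Colgalt2, which adds galactose to hydroxylysine, went from 59.4 to 6.83 CPM (-3.12), Pcolce2, an enhancer of procollagen cleavage, from 288 to 136 CPM (-1.08) and Itga11, a fibroblast receptor for fibrillar collagen, from 110 to 50.4 CPM (-1.12). In lung fibroblasts 3 of 39 were higher and 8 lower, against 10.4% and 10.7% of all genes, with a median of -0.25, against -0.02 for all genes.

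Cells that should lack collagen had few collagen UMIs. Lymphocytes had 5.07 and 0.885 collagen UMIs per cell in TNF- and TNF+ synovium and 0.406 and 0.364 in TNF- and TNF+ lung, against 192, 363, 55.4 and 22.1 per fibroblast in the same order. After thinning each cell to 1000 UMIs, 65.5% and 68.2% of TNF- and TNF+ synovial fibroblasts and 47.0% and 32.2% of TNF- and TNF+ lung fibroblasts had a Col1a1 UMI. This left out 7, 15, 92 and 59 shallower fibroblasts. Among lymphocytes, whose median depth was 5936 to 10737.5 UMIs before thinning, the share was between 0.2% and 5.1%. Before thinning, 98.8% and 93.8% of synovial fibroblasts had one. Col4a1 was found in 39.2% of TNF- and 65.4% of TNF+ lung endothelial cells after thinning, which left out 149 and 229 cells, and in 0.49% and 0.66% of lymphocytes.

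Promoter windows of 300 bases (250 before to 50 after a RefSeq start) were found for 35 of the 44 genes. The GC box was in 62.9% of these genes, against 38.2% of all 27025 genes with a window. The CCAAT box was in 37.1%, against 41.1%, the TATA box in 14.3%, against 15.7%, and CAGACA, part of the element bound by Smad proteins, in 25.7%, against 23.6%. The shares of the CCAAT box, the TATA box and CAGACA were thus within 5 percentage points of those of all genes.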

How the data were processed

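The authors sorted live cells, captured them on the 10x Chromium 3′ platform and deposited raw UMI counts per gene and barcode made with Cell Ranger 7.0.1 on mm10, per the labels. Cells with 200 to 5000 genes and at most 20% mitochondrial UMIs were kept, as in the study's methods, leaving 6200 and 3152 cells of TNF- and TNF+ synovium and 6998 and 9174 of TNF- and TNF+ lung, with 76203216, 33047125, 53800390 and 84398714 UMIs. Libraries shared between 3 and 16 cell barcodes. Intronic reads, counted by default in this Cell Ranger version, add to long genes. Cells of both genotypes of a tissue were clustered together without the collagen genes (scanpy 1.11.5, 2000 variable genes, 30 components, 20 neighbours, Leiden resolution 0.8 with leidenalg 0.10.2) and named from marker lists, with at least 5 markers for a lineage and 3 for a subtype. The names are rebuilt here and may differ from the study's. Counts were summed per class and library. With 1 library per group no test was run: shares have exact binomial, levels exact Poisson and log2 ratios conditional binomial 95% intervals (scipy 1.17.1, numpy 2.4.6). Ratios need at least 20 UMIs over both libraries together and 50 cells in each, and a count of 0 was set to a floor of 3 UMIs. The ratio, its interval and the 2-fold call were tested on counts simulated from the fibroblast means. Filtering, clustering, naming and differences between pools of mice were not part of that test. In it 4.62% of unchanged genes passed 2-fold in synovial fibroblasts and 7.24% in lung fibroblasts, through counting error alone. Doublets were left in, and an alternative removed them.

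The members and all lists were chosen with earlier results of these data known. Genes named were the main chains of each group, up to 3 members per group and direction with the largest ratio past 2-fold in the fibroblasts of a tissue, members with most UMIs outside fibroblasts and up to 5 processing genes per direction; Schwann cell values, Col5a3, Col24a1, Col27a1 and Col2a1 were added after their values were seen. Gene positions are from GENCODE vM21, and sequences from RefSeq on GRCm38.p6. Alternatives changed the filters on cells and genes, clustering, scaling, doublets and cluster weighting; leaving out the Mmp13 Ibsp cluster and weighting clusters were chosen after seeing the data.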

Additional observations from a re-analysis of the deposited data

Results flagged for a closer look

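In 3 comparisons the fibrillar and the basement membrane genes went opposite ways in groups under the same contrast of TNF+ over TNF-. None of these differences was tested, since each value rests on 1 library per genotype. The log2 ratio of fibrillar genes was 1.70 in synovial and -0.23 in lung fibroblasts, and that of basement membrane genes -1.08 and 0.22. In endothelium the fibrillar genes had -1.57 in synovium, at 340 and 115 CPM against 214 and 98.4 CPM in lymphocytes of the same libraries, and 0.95 in lung, and the basement membrane genes -0.50 and 1.51. Between fibroblast clusters of synovium, the fibrillar genes had 1.23 in tendon-like and -1.39 in Cxcl14 Smoc2 cells, and the basement membrane genes 0.71 and -0.52.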

How the results depend on the processing

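With 1 library per genotype and tissue, 55 TNF+ Cxcl14 Smoc2 cells and 118 TNF+ lung fibroblasts of shallow depth, small differences cannot be told from those between pools of mice. No paired analysis was possible because each group was 1 library and the labels give no replicate numbers. For log2 ratios, direction was kept in 65 of 69 alternatives of the main results and in 361 of 414 of the others. By size the results were less steady. Among all alternatives of the main results, 75 moved out of the range set around the main value, 63 stayed within it and 1 changed sign from past 2-fold. For the others these numbers were 208, 200 and 6. The cause of each shift below was not tested.

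For all members in synovial fibroblasts (1.18), the log2 ratio was -0.46 with clusters weighted to the TNF- shares, 0.35 without the Mmp13 Ibsp cluster, 0.92 per cell, 1.03 without doublets, 0.70 with cells weighted equally, 1.09 with each library clustered by itself, 1.39 with median-of-ratios scaling, 1.55 with no filter on cells and 1.07 without clusters held over 90% by 1 library, which leaves the tendon-like cluster alone. Under the last setting 6 of 31 members were higher and 2 lower, against 4.19% and 15.3% of all genes, Col12a1 was at -0.07, Col4a1 at 0.75 and basement membrane at 0.71. Weighting turned fibrillar to -0.37 and Col3a1 to -0.98, and leaving out the Mmp13 Ibsp cluster turned Col3a1 to -0.45.

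For lung fibroblasts (-0.28) it was -0.36 at Leiden resolution 1.6, -0.05 weighted, -1.33 per cell, -0.90 with cells equal, -0.47 with each library by itself, -0.40 with median-of-ratios scaling, 0.12 with no filter on cells, -0.13 with stricter filters of 500 genes and 10% mitochondrial UMIs, and -0.34 without the 90% clusters. Higher members (all genes beside them) were 3 of 25 without doublets (10%), 1 of 20 at 100 UMIs (5.14%), 9 of 33 at 5 UMIs (20.8%) and 3 of 25 with stricter filters (9.97%). Lower members were 5 of 27 with each library by itself (9.66%), 1 of 20 at 100 UMIs (9.06%), 1 of 25 with stricter filters (11.3%) and 4 of 26 without the 90% clusters (10.4%).

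Whole synovium (-0.64) gave -0.82 without doublets, -0.98 with cells equal, -0.52 with median-of-ratios scaling and 0.26 with no filter on cells. Whole lung (-2.65) gave -2.48, -1.93, -2.30 and -2.32 in the same order and -2.79 with stricter filters.

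The mesenchymal share of collagen UMIs without doublets, after taking off the lymphocyte level, with no filter on cells and with stricter filters was 95.5%, 96.5%, 93.6% and 95.6% in TNF- synovium, 91.7%, 93.2%, 91.9% and 92.8% in TNF+ synovium, 51%, 57.7%, 63.1% and 56.3% in TNF- lung and 26.1%, 31.7%, 33.7% and 22.4% in TNF+ lung. With each library by itself it was 75.3% in TNF- synovium, 89.0% in TNF+ synovium and 22.8% in TNF+ lung, and with collagen genes allowed in clustering 95.1% in TNF- synovium.

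Type IV in lung endothelium (1.51) was 0.76 per cell, 0.89 with cells equal, 1.58 with each library by itself, 1.38 with median-of-ratios scaling, 1.6 with no filter on cells and 1.65 with stricter filters. In synovial endothelium (-0.50) it was 0.33 per cell, -0.64 with cells equal, -0.36 with median-of-ratios scaling and -0.21 with no filter on cells. In lung mural cells (-0.67) it was -2.76 per cell, -1.10 without doublets and -0.09 with no filter on cells. In synovial mural cells (-0.50) it was -0.02 per cell, -0.95 with cells equal, -0.34 with each library by itself and with median-of-ratios scaling, -0.19 with no filter on cells and -0.83 without the 90% clusters. Too few cells were left for type IV in lung endothelium without the 90% clusters, and in lung mural cells also with stricter filters and each library by itself.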

Other observations

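Vessel-associated cells held further collagen differences by genotype. In synovial mural cells Col25a1, a transmembrane collagen, had 40.4 and 12.3 CPM in the TNF- and TNF+ libraries (log2 -1.71), Col6a3 had 332 and 114 CPM (-1.54) and Col18a1 55.2 and 99.3 CPM (0.85). The fibroblast marker list went from 1995 to 567 CPM and the endothelial list from 487 to 3239 CPM in these cells. In lung mural cells Col3a1 had 1049 and 346 CPM (-1.60) and Col7a1 22.0 and 126 CPM (2.52), where the macrophage or monocyte list went from 214 to 4602 CPM. A shallow pericyte cluster held 22 of the 106 TNF- and 86 of the 95 TNF+ lung mural cells. Col18a1 was higher in TNF+ lung epithelium too, at 5.66 and 49.2 CPM (3.12). Synovial endothelium had 9.23 and 22.8 CPM of Col28a1 (1.30). These values were chosen after they were seen and were not tested.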
